A study of Mus musculus with 4 samples.

Results

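The genes described here are 9 cytokine and receptor genes of the interleukin-6 family, chosen by name: the ligand genes Lif, Il6, Osm, Cntf and Clcf1 and the receptor genes Lifr, Il6ra, Il6st and Osmr. They are 9 of 22558 gene symbols in the deposited RNA-seq tables of whole mouse retina. Each of the 4 libraries is a group of its own, at about 8 weeks of age and on a mixed C57BL/6 and 129 background: the DTA and the control retina at day 1 after injury, and the DTA and the control retina at day 5. DTA mice carried Msi1-CreERT2/+ and R26R-DTA/+, where Msi1 directs a tamoxifen-dependent Cre recombinase that switches on diphtheria toxin fragment A, an inhibitor of protein synthesis that kills the cell making it. Control mice carried R26R-DTA/+ without the Cre allele, so both genotypes shared the toxin allele. The labels give neither the number of mice per library nor the agent that induced the Cre, nor whether the controls received it. Which retinal cells made the toxin cannot be read from whole-retina RNA.

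Cytokines of this family act through gp130, the shared signalling receptor encoded by Il6st. Gp130 pairs with the LIF receptor for LIF, CNTF and CLCF1, with the oncostatin M receptor for oncostatin M, and with a second gp130 when interleukin-6 is bound to its own receptor. The receptor complex activates JAK kinases and the transcription factor STAT3, which induces its own inhibitor SOCS3. In the injured retina, LIF is known as a glial signal that protects photoreceptors and drives the reactive response of Müller glia, and CNTF is known as a photoreceptor survival factor.

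Levels are the FPKM computed by the authors, sequenced fragments normalised for transcript length and library size, and a difference is DTA minus control of log2(FPKM + 1) unless another pair is named. With 1 library per group there is no spread between animals, no test and no p-value. A gene was called higher or lower by size alone: a difference of at least 1, exceeding in size the difference of the same gene from one control to the other, with or without a floor of 5 FPKM in one of the libraries compared. The day 1 DTA table covers only part of the genome and holds 3 of the 9 genes, Lif, Osm and Il6st. The depth, estimated from the lowest FPKM values, was about 99100000 fragments in day 1 DTA, 73300000 fragments in day 1 control, 28900000 fragments in day 5 DTA and 35700000 fragments in day 5 control. The bounds given with a value are the authors' own and hold no spread between animals. At day 5 the DTA bounds lay above those of the control for 3742 of the 7190 genes compared this way.

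In DTA retina at day 5, all 9 genes had a higher FPKM than in the control of that day, but Osm rested on about 6 fragments, too few to read a difference from. Most genes at 5 FPKM or more in one of these libraries were also higher. Over these 9895 genes the median difference was 0.26 and the lower quartile -0.005. The ligands Lif, Il6 and Cntf and the receptor Osmr differed by about 2 or more on the log2 scale. Without a floor, these 4 of 9 genes were called higher and none lower, where 4.12% of all 22527 genes were called higher. The 9 genes were chosen with earlier results of these data known, so the 2 shares do not test the family. With the floor of 5 FPKM, Lif, Cntf and Osmr were called higher, where 6.75% of 9883 genes were, but each of these genes passed the floor through the day 5 DTA library alone and so had to differ. Over all genes at the floor, 667 were called higher and 175 lower, and 412 and 261 after scaling the libraries by their median ratio. That scaling shifted the FPKM ratio of DTA to control by -0.26 on the log2 scale for every gene. The median difference at the floor was then 0.02 in place of 0.26, and the same 3 genes were called. The median difference of the 9 genes was 0.98. That of all 22541 genes with a value was 0.06, and that of the 9895 genes at the floor 0.26. In whole tissue, more cells of a type and more RNA per cell cannot be told apart.

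**Figure D1:**
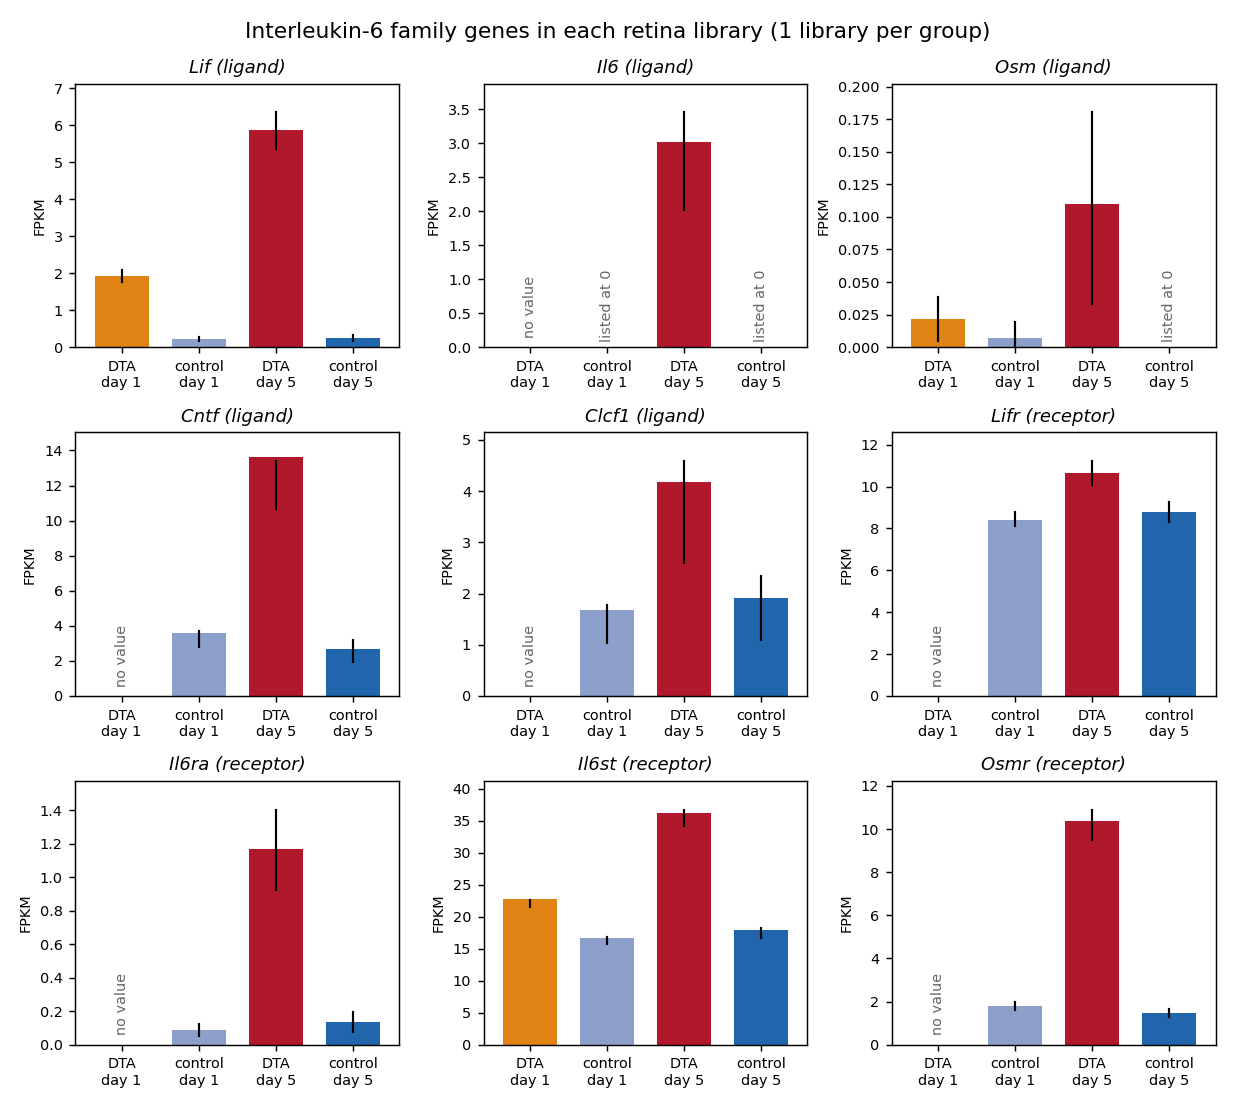
FPKM of the 9 genes in the 4 libraries, 1 bar per library, with the authors' lower and upper bounds as black lines; genes outside the day 1 DTA table are marked as having no value. Lif stands at 1.93 FPKM in day 1 DTA and 5.87 FPKM in day 5 DTA and at 0.206 and 0.248 FPKM in the controls, while Lifr differs little between libraries.

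Lif, which encodes leukemia inhibitory factor (chromosome 11, 4157571 to 4172517 on the plus strand of mm9), had the largest difference of the 5 ligand genes at day 5 with the pseudocount of 1 used here, and was one of the 2 ligand genes measured at day 1. It stood at 1.93 FPKM in day 1 DTA (bounds 1.77 to 2.09) and 0.206 FPKM in day 1 control (0.152 to 0.264). It stood at 5.87 FPKM in day 5 DTA (5.37 to 6.37) and 0.248 FPKM in day 5 control (0.163 to 0.333). With a pseudocount of 0.1, Il6 was ahead of it, at 4.96 against 4.10 for Lif, and with one of 5 Cntf was, at 1.27 against 1.05. The bounds of each DTA library lay above those of both controls, and the controls differed by 0.05 on the log2 scale. The FPKM was thus 9.34-fold higher in DTA at day 1, a difference of 1.28, and 23.6-fold higher at day 5, a difference of 2.46. The DTA values rest on about 768 fragments at day 1 and 681 at day 5, and the control values on about 61 and 36.

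Lif differed further between the 2 DTA libraries, by 1.23 (day 5 minus day 1), or 3.04-fold in FPKM. By the size rule with the floor it was called higher at day 5 in this comparison, as were 2.46% of 2724 genes. Its day 5 difference was larger than its day 1 difference by 1.18, a call made upwards for 3.64% of 2777 genes. In both comparisons Lif passed the floor through the day 5 DTA library alone, so the floor selected it by its high day 5 value. With a pseudocount of 5 in place of 1 neither call was made, and the difference between the DTA libraries was 0.65. At day 1 Lif was below the floor of 5 FPKM. Without the floor it was the 1 gene of 3 called higher, where 1.24% of 5785 genes were, and with a pseudocount of 5 its day 1 difference was 0.41. The tables list 2 start sites for it under 1 value, so its transcript forms are not separated.

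Il6, which encodes interleukin-6 (chromosome 5, 30339701 to 30346508), was listed at 0 FPKM in both controls. In day 5 DTA it stood at 3.01 FPKM (bounds 2.02 to 3.46), from about 95 fragments. No fold is given against a value listed at 0; the difference was 2.0, or 4.96 with a pseudocount of 0.1 and 0.68 with one of 5, and the gene stayed under the floor of 5 FPKM.

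Cntf, which encodes ciliary neurotrophic factor (chromosome 19, 12838018 to 12840122 on the minus strand), was the most abundant of the 5 ligand genes in each full library. It stood at 13.6 FPKM in day 5 DTA, against 2.70 FPKM in day 5 control (bounds 1.95 to 3.18) and 3.58 FPKM in day 1 control (2.77 to 3.69). The day 5 difference was 1.98, or 5.05-fold in FPKM, and 1.67 when the day 1 control was used. The authors' bounds for day 5 DTA, 10.7 to 13.4, do not enclose the FPKM itself. Cntf lies 1.31 kb from the end of Zfp91, a zinc finger gene on the same strand, and the GENCODE annotation of this build holds a transcript of Zfp91 that reads through Cntf. Zfp91 stood at 28.5 FPKM in day 5 DTA and 21.5 FPKM in day 5 control, a difference of 0.39, and fragments of a read-through transcript cannot be told apart from those of Cntf here.

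Clcf1, which encodes cardiotrophin-like cytokine factor 1, a second ligand of the CNTF receptor (chromosome 19, 4214392 to 4222615), stood at 4.17 FPKM in day 5 DTA (bounds 2.60 to 4.60), against 1.91 FPKM in day 5 control (1.09 to 2.34) and 1.68 FPKM in day 1 control (1.04 to 1.78). The DTA bounds lay above those of both controls, the difference was 0.83, and it was not called. Osm, which encodes oncostatin M (chromosome 11, 4136788 to 4141029), was near the limit of detection in every library. It stood at 0.0214 FPKM in day 1 DTA, from about 4 fragments, and 0.00714 FPKM in day 1 control, from about 1 fragment. At day 5 it stood at 0.110 FPKM in DTA (bounds 0.0329 to 0.181), from about 6 fragments, and was listed at 0 in control. With so few fragments, no difference is read from these values. Osm and Lif are neighbours, 16.5 kb apart with no annotated coding gene between them. Lif was called at day 5, while Osm lay too low to be called by the size rule, so the 2 calls cannot be compared.

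**Figure D2:**
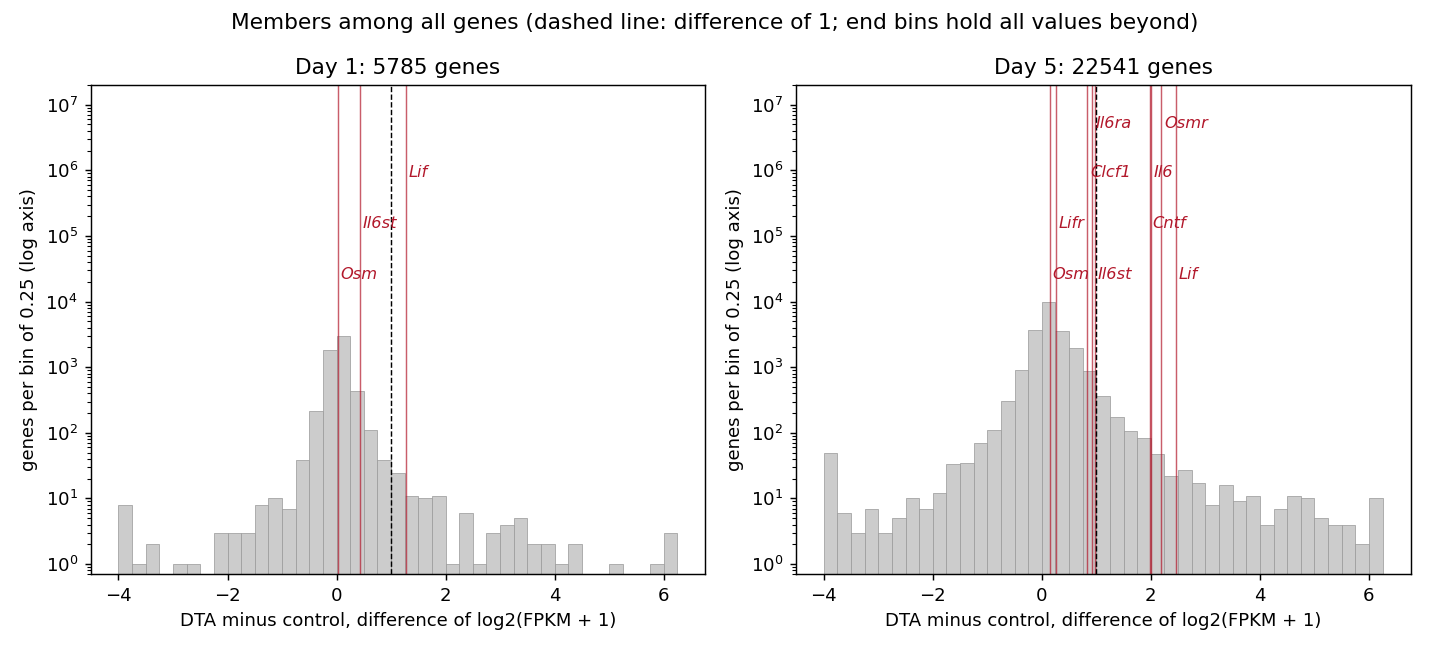
Distribution of the DTA minus control difference of log2(FPKM + 1) over all genes with a value at day 1 (left, 5785 genes) and day 5 (right, 22541 genes), on a log axis of genes per bin, with the family genes as red lines and a difference of 1 dashed. At day 5 Lif (2.46), Osmr (2.19), Il6 (2.0) and Cntf (1.98) lie beyond the dashed line and Il6st (0.98) lies just inside it.

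By place among the 22541 genes ordered by their day 5 difference from the highest, Lif was number 149, Osmr 178, Il6 213 and Cntf 218. Il6st followed at 1010, Il6ra at 1123 and Clcf1 at 1452, while Lifr was number 7333 and Osm 9201. At day 1, Lif was number 62, Il6st 305 and Osm 2528 of 5785 genes.

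The 3 ligand genes with the largest day 5 differences, Lif, Il6 and Cntf, are shown with the 250 bases before their RefSeq start, together with Osmr, the receptor with the largest difference. Coordinates of these windows are on GRCm38.p6, not on the build of the expression tables. Capitals mark matches to the AP-1 motif TGANTCA or the NF-kappa B motif, searched on both strands along with the STAT motif TTCNNNGAA. No marked matches overlap. The windows are chr11:4257318-4257567 for Lif (plus strand), chr5:30012864-30013113 for Il6 (plus strand), chr19:12765633-12765882 for Cntf (minus strand) and chr15:6874314-6874563 for Osmr (minus strand), each printed 5′ to 3′ on the gene's strand.
Lif: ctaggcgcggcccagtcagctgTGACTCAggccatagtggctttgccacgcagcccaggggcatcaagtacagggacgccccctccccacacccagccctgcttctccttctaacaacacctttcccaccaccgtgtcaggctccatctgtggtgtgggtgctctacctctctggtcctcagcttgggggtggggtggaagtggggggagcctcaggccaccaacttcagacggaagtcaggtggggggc
Il6: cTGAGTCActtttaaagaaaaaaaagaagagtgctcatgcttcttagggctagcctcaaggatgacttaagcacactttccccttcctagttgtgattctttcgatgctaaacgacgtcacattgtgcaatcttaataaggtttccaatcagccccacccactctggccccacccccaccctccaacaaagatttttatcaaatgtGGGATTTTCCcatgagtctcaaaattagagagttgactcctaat
Cntf: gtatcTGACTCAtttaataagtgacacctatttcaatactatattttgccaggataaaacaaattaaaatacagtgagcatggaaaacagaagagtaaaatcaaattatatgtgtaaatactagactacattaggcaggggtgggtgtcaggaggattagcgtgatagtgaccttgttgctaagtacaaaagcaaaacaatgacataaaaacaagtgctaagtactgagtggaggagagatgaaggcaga
Osmr: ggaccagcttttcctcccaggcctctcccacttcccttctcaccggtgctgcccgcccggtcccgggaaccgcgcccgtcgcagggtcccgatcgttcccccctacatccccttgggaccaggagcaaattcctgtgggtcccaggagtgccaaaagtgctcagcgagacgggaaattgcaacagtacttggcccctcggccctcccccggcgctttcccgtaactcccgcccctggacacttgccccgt

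Of the 9 genes, 7 have a promoter in the RefSeq table, in 8 windows, since Lifr has 2 starts. An AP-1 match was found in the windows of Lif (228 to 222 bases before the start), Il6 (249 to 243) and Cntf (245 to 239). Of all 32851 windows of the same length, 6.75% hold such a match. The NF-kappa B motif was found in the Il6 window, 44 to 35 bases before the start, and in 3.90% of all windows. The STAT motif was found in none of the 8 windows and in 7.02% of all. A match describes the letters of the window and not the binding of a factor.

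Among the receptors, Osmr had the largest difference. Osmr, which encodes the oncostatin M receptor (chromosome 15, 6763577 to 6824313), stood at 10.4 FPKM in day 5 DTA (bounds 9.51 to 10.9), against 1.48 FPKM in day 5 control (1.28 to 1.68) and 1.81 FPKM in day 1 control (1.63 to 1.98). The DTA library was 6.99-fold above its control, a difference of 2.19, and its bounds lay far above those of both controls. Its closest neighbour among the 9 genes, Lifr, which encodes the LIF receptor, lies 255 kb away (chromosome 15, 7079572 to 7147489) with no annotated coding gene between them. Lifr stood at 10.7 FPKM in day 5 DTA (10.1 to 11.2), against 8.79 FPKM in day 5 control (8.33 to 9.27) and 8.39 FPKM in day 1 control (8.13 to 8.78). The difference of Lifr was 0.25, close to the median of 0.26 over the 9895 genes at 5 FPKM or more in one of these libraries, and after scaling by the median ratio it was 0.01.

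Il6st, the gp130 gene (chromosome 13, 113254278 to 113297068), was the most abundant of the 9 genes in each full library, and of the 3 with a value in day 1 DTA. It stood at 22.7 FPKM in day 1 DTA and 16.6 FPKM in day 1 control, a difference of 0.43, or 1.37-fold. The authors' bounds for day 1 DTA, 21.6 to 22.6, do not enclose that FPKM, and they lie above those of the control, 15.7 to 16.9. At day 5 it stood at 36.3 FPKM in DTA (34.2 to 36.8) and 17.9 FPKM in control (16.8 to 18.2), a difference of 0.98, or 2.03-fold. Il6st was not called at either day, where 2.06% of 2623 genes at the floor were called higher at day 1. It passed a difference of 1 at day 5 against the day 1 control (1.08), against the mean of both controls (1.03) and with a pseudocount of 0.1 (1.02), and lay at 0.73 after median ratio scaling.

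Il6ra, which encodes the receptor subunit specific to interleukin-6 (chromosome 3, 89673246 to 89717084), was the least abundant receptor gene. It stood at 1.17 FPKM in day 5 DTA (0.928 to 1.41), against 0.138 FPKM in day 5 control (0.0763 to 0.198) and 0.0904 FPKM in day 1 control (0.0546 to 0.124). These values rest on about 113, 16 and 22 fragments in the same order. The DTA bounds lay above those of both controls, the ratio of FPKM was 8.45, and the difference was 0.93, or 2.41 with a pseudocount of 0.1 and 0.26 with one of 5.

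**Figure D3:**
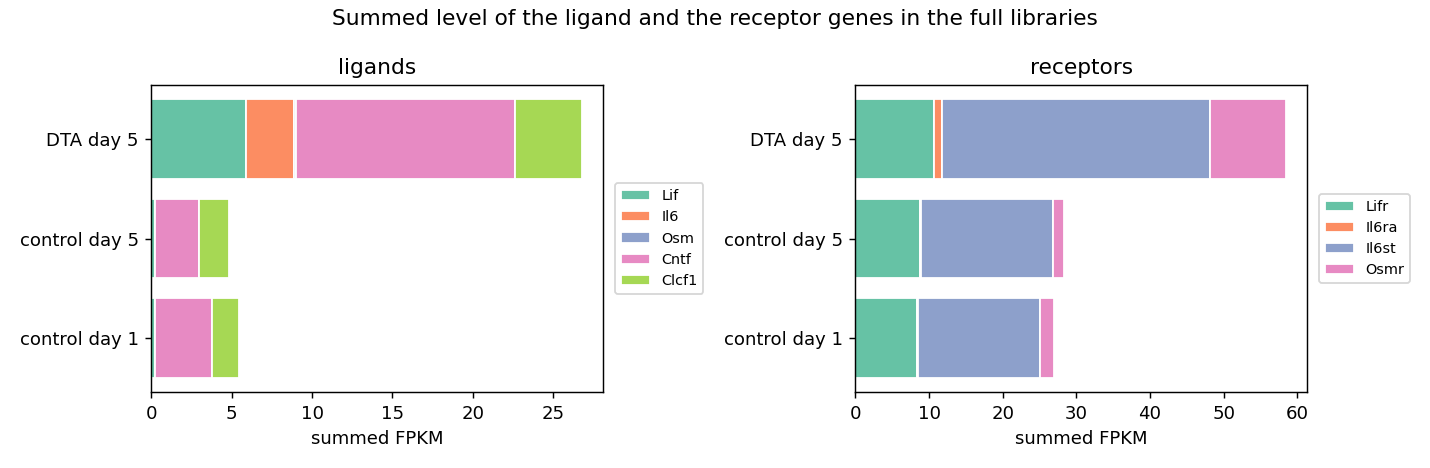
FPKM of the 5 ligand genes (left) and of the 4 receptor genes (right), stacked for the 3 libraries that hold all 9 genes, 1 horizontal bar per library. The ligand bar reaches 26.8 FPKM in day 5 DTA and 4.85 FPKM in day 5 control, and the receptor bar 58.4 and 28.3 FPKM.

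Summed over the 5 ligand genes, the level was 26.8 FPKM in day 5 DTA, against 4.85 FPKM in day 5 control and 5.47 FPKM in day 1 control. Cntf made up 50.9% of the ligand sum in day 5 DTA, against 55.6% in day 5 control. Lif made up 21.9% in day 5 DTA and 5.12% in day 5 control, and Il6 11.2% in day 5 DTA. The receptor sum was 58.4 FPKM in day 5 DTA, against 28.3 FPKM in day 5 control. Il6st kept a like share of it, 62.1% in day 5 DTA and 63.2% in day 5 control, while Osmr made up 17.7% in day 5 DTA and 5.24% in day 5 control. Lifr made up 18.2% in day 5 DTA and 31.1% in day 5 control.

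The order of the levels differed between the day 5 libraries. In day 5 DTA the order was Il6st, Cntf, Lifr, Osmr, Lif, Clcf1, Il6, Il6ra and Osm, and the authors' bounds overlapped between Cntf and Lifr, between Lifr and Osmr, and between Clcf1 and Il6. In day 5 control it was Il6st, Lifr, Cntf, Clcf1, Osmr, Lif and Il6ra, with Il6 and Osm listed at 0, and the bounds overlapped from Cntf to Clcf1, from Clcf1 to Osmr and from Lif to Il6ra. Between the day 5 and the day 1 control, none of the 9 genes was called in either direction without a floor, where 1.31% of 22532 genes were. Their differences between the controls (day 5 minus day 1) lay between -0.31 for Cntf and 0.12 for Clcf1.

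Markers of other cell types also differed between the libraries. The 12 microglia and macrophage markers summed to 172 FPKM in day 5 DTA and 21.4 FPKM in day 5 control, with all 12 above the control, and the 4 measured at day 1 summed to 4.24 FPKM in DTA and 3.15 FPKM in control. Of 9 measured markers of other leukocytes, 4 were listed at 0 in day 5 DTA, among them the T cell genes Cd3e and Cd3g, and 6 in day 5 control. Their sums were 1.35 and 0.126 FPKM, with 4 markers above the control and 1 below. Most of the day 5 DTA sum lay in Cd79a, at 0.836 FPKM in day 5 DTA and 0.0227 FPKM in day 5 control. The 9 rod markers measured in both libraries summed to 4248 FPKM in day 5 DTA and 13919 FPKM in day 5 control. Most of that gap lay in Gnat1, at 739 FPKM in day 5 DTA and 6678 FPKM in day 5 control. All 9 were below the control and 6 were called lower, while Sag and Pde6a differed by only -0.11 and -0.21. The 10 Müller glia markers summed to 862 FPKM in day 5 DTA and 1694 FPKM in day 5 control. Most of that difference lay in Glul, the glutamine synthetase gene, at 159 FPKM in day 5 DTA and 888 FPKM in day 5 control. Without Glul the sums were 703 FPKM in day 5 DTA and 806 FPKM in day 5 control. Of the 10, 2 were called lower and 1 higher, Vim (vimentin), at 127 FPKM in day 5 DTA and 54.8 FPKM in day 5 control. The 6 endothelial markers summed to 49.7 FPKM in day 5 DTA and 45.7 FPKM in day 5 control. Markers of adjoining tissue also differed: the 14 lens markers summed to 19.8 FPKM in day 5 DTA, 308 FPKM in day 5 control and 2248 FPKM in day 1 control, and the 9 pigment epithelium and melanocyte markers to 17.5, 39.7 and 157 FPKM in the same order. At day 1, the 6 lens markers measured summed to 1760 FPKM in DTA and 891 FPKM in control. The part of these cell types in the values of the 9 genes was not tested.

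Of 7 other cytokine genes of the family, none reached 5 FPKM at day 5 and the median difference was 0.04. Il27, which encodes a subunit of interleukin-27, stood at 1.75 FPKM in day 5 DTA and was listed at 0 in both controls, while Ctf1, the cardiotrophin 1 gene, stood at 1.29 FPKM in day 5 DTA and 1.43 FPKM in day 5 control. Of 5 other receptor genes none was called at day 5, with a median of 0.02. Cntfr, which encodes the CNTF-binding receptor subunit, had the largest difference of these in size, at 15.0 FPKM in day 5 DTA, against 24.8 FPKM in day 5 control and 21.5 FPKM in day 1 control, a difference of -0.69 that was not called. Il11ra1, the interleukin-11 receptor gene, stood at 5.55 FPKM in day 5 DTA and 5.17 FPKM in day 5 control; it has a near-identical copy, Il11ra2, so its value is uncertain.

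Of 10 transducer genes, which carry the signal inside the cell, 8 had a value in both day 5 libraries, none was called, and the median was 0.27, close to the 0.26 of all genes at the floor. The Janus kinase genes Jak2 and Tyk2 differed by 0.58 and 0.48, and Ptpn11 and Gab1, which link gp130 to the MAP kinase pathway, by 0.31 and 0.36. Stat3 has no estimate in either DTA library, where the authors' tables mark it as failed, and stood at 11.3 FPKM in day 1 control and 11.9 FPKM in day 5 control.

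**Figure D4:**
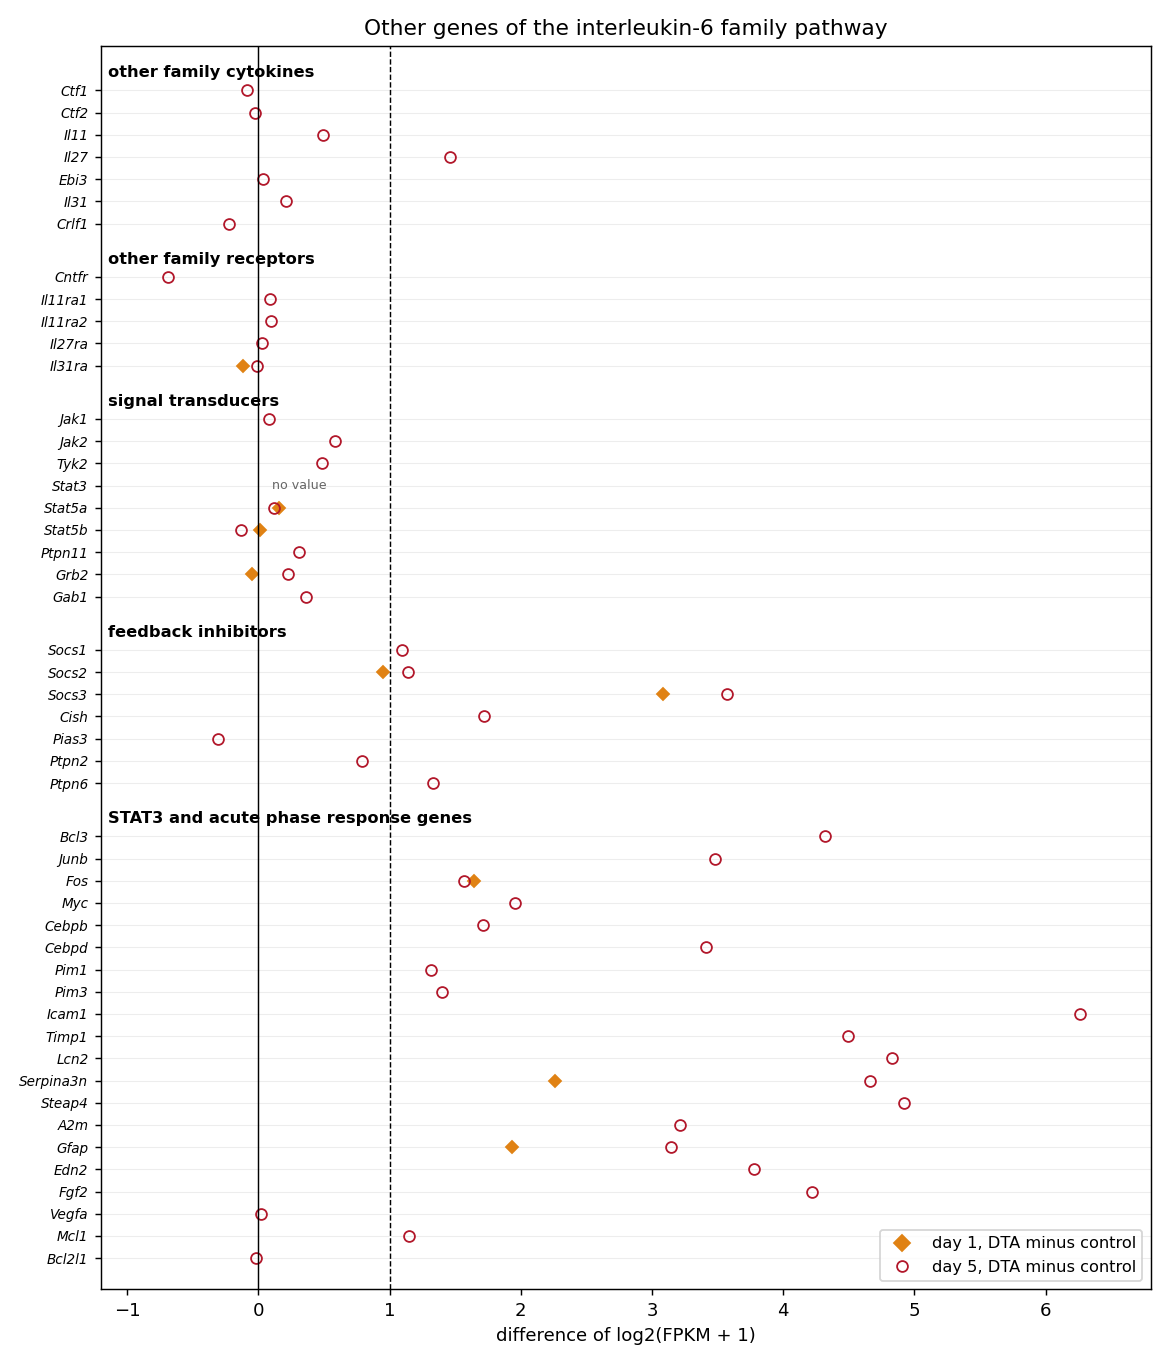
DTA minus control difference of log2(FPKM + 1) for the other genes of the pathway, by list, at day 1 (filled diamonds, genes in the day 1 DTA table) and day 5 (open circles), with a difference of 1 dashed. Other cytokines, receptors and transducers lie within 1 of 0 except Il27 at 1.46, while Socs3 and most genes of the response list lie above 1.

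Of 7 feedback inhibitor genes, 5 were called higher at day 5 without a floor and none lower, beside 4.12% of all genes, and the median was 1.14. With the floor 3 were called higher, beside 6.75% of all genes, but all 3 (Socs3, Cish and Socs2) reached it through the DTA library alone and so had to differ. This list too was drawn up with earlier results of these data known. Socs3 stood at 15.4 FPKM in day 1 DTA and 0.941 FPKM in day 1 control, and at 31.8 FPKM in day 5 DTA and 1.75 FPKM in day 5 control. Between the DTA libraries (day 5 minus day 1) Socs3 differed by 0.996, just under the size rule, and Lif by 1.23. Cish, a cytokine-inducible SOCS family gene, stood at 15.6 FPKM in day 5 DTA and 4.04 FPKM in day 5 control, and Socs2 at 5.84 FPKM in day 5 DTA and 2.1 FPKM in day 5 control. Socs1 and Ptpn6, a phosphatase gene of blood cells, differed by 1.10 and 1.33 below the floor; microglia express Ptpn6 too.

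Of 20 genes of the STAT3 and acute phase response list, 18 were called higher at day 5 without a floor and none lower, beside 4.12% of all genes, and the median was 3.31. With the floor 17 were called higher, beside 6.75% of all genes; 12 of these reached it through the DTA library alone and so had to differ, and 5 were at 5 FPKM or more in control as well. Icam1 (an adhesion molecule), Steap4 (a metalloreductase), Lcn2 (an iron-binding protein), Serpina3n (a protease inhibitor) and Timp1 (a metalloproteinase inhibitor) had day 5 differences of 6.27, 4.92, 4.83, 4.66 and 4.50. Of the same list 3 genes were measured at day 1, Fos, Serpina3n and Gfap, and all 3 were called higher, beside 2.06% of all genes at the floor; 2 of them, Serpina3n and Gfap, reached it through DTA alone. Not called with the floor at day 5 were Myc, which differed by 1.96 below the floor, Vegfa at 0.02 and Bcl2l1 at -0.02. Several of these genes also respond to interferons and NF-kappa B, so the list is not specific to gp130, and it was drawn up with results of these libraries known.

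The genes whose pattern was most like that of Lif were sought by the Euclidean distance between their differences from the day 1 control over the 4 libraries, among 3271 genes at 1 FPKM or more in one of them. Nearest were Neurl3 (distance 0.20), Ccl7 (0.27), Irgm2 (0.33), Igtp (0.37) and Sbno2 (0.56). Neurl3 stood at 1.81 FPKM in day 1 DTA and 0.141 FPKM in day 1 control, and at 4.68 FPKM in day 5 DTA and 0.230 FPKM in day 5 control. For Osmr, over the 3 full libraries and 12064 genes, nearest were Ccl12 (0.03), Phlda3 (0.04), Arl6 (0.08), Aen (0.08) and Parp9 (0.09). Levels differed widely within this group: Arl6 stood at 198 FPKM in day 5 DTA and 39.4 FPKM in day 5 control, and Ccl12 stood at 3.47 FPKM in day 5 DTA and was listed at 0 in day 5 control.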

How the data were processed

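Retinal RNA was isolated with Sepazol reagent before Illumina mRNA-seq library preparation, per the labels' protocols. The deposited FPKM values and their bounds were computed by the authors; Cufflinks 2.1.1, CASAVA 1.8.2, bcl2fastq 1.8.4 and the build mm9 stand in the submitters' processing notes, without roles. Aligner and gene models: not given in the sources used here. Upper bounds lie below the FPKM in 23.8%, 17.8%, 10.6% and 10.3% of lines (day 1 DTA, day 1 control, day 5 DTA, day 5 control), so bounds served description and 1 alternative.

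Lines marked as failed (10, 25, 13 and 7 in the same order) or as having too much data (1 in each control) were read as missing, and several loci of 1 symbol were summed. Fragments were estimated by taking the commonest small product of FPKM and length, over genes with 1 GENCODE transcript of more than 1500 bases, as 1 fragment; this counts fragments only approximately. Differences and calls were computed over all genes with Python 3.11.15, pandas 2.3.3 and numpy 2.4.6. The call rule was tested on simulated data, with changes set only in genes at 5 FPKM or more in day 5 control. Lif, Il6, Cntf and Osmr lie below that level in control, so the simulation does not cover them. Named are the 9 genes and, from each list, up to 5 genes of at least 1 FPKM with the largest day 5 difference. Genes without a value were added. Beyond that rule, some were chosen after their values were seen (Il11ra2, Fos, Gfap, Myc, Vegfa, Bcl2l1, Zfp91, Cd3e, Cd3g, Cd79a, Sag and Pde6a). The members and lists were chosen with earlier results of these data known. Promoter sequences are from RefSeq (GRCm38.p6); Osm and Clcf1 are named only. One gene of the transducer list is not reported here by name or in the plot, and stays in the list's counts.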

Additional observations from a re-analysis of the deposited data

How the results depend on the processing

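Over the scaling and control alternatives, none of 36 day 5 and 12 day 1 differences of the 9 genes turned, and none of 16 between the controls (without Il6, at 0 in both) or 6 between the DTA libraries; a pseudocount cannot turn a sign. The day 5 count of 3 genes called higher was 3 or 4 under each alternative tried. With a floor of 1 FPKM or no floor, 1 gene (Lif) in place of 0 was called at day 1. With a pseudocount of 5, 0 in place of 1 was called between the DTA libraries and for the day 5 minus day 1 difference; the larger pseudocount itself shrinks differences of low genes. The day 5 differences ranged from 1.05 to 4.10 for Lif, 0.68 to 4.96 for Il6, 1.24 to 2.73 for Osmr, 1.27 to 2.29 for Cntf and 0.26 to 2.41 for Il6ra. With the authors' bounds in place of the size rule, the genes called at day 5 were Lif, Lifr, Il6st and Osmr. By that rule 3742 of 7190 genes were called higher, so such a call is common. Cntf was left out because its bounds do not enclose its FPKM. Il6, Clcf1, Il6ra and Osm, whose DTA bounds also lay above those of day 5 control, were under 5 FPKM.

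Over all genes at day 5, 667 were called higher and 175 lower. Median ratio scaling, which shifted the FPKM ratio of DTA to control by -0.26 on the log2 scale, gave 412 and 261. A pseudocount of 5 gave 350 and 122, and the authors' bounds gave 3742 and 711 of 7190 genes. At day 1, 54 higher and 16 lower became 35 and 11 with a pseudocount of 5, 85 and 10 against the day 5 control, 59 and 7 against the mean of both controls, 70 and 34 with no requirement on the controls, and 335 and 129 with the authors' bounds. Between the DTA libraries 67 higher became 42 with a pseudocount of 5 and 103 without a floor. No paired analysis was possible because each group has 1 library, and for the same reason no replicate could be left out. Depth limits Osm, with 6 fragments or fewer, and Il6ra and Lif in the controls.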
